A study of Mus musculus with 16 samples.

Results

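The 35 genes described here encode demethylases and hydroxylases that depend on 2-oxoglutarate, 35 of the 21779 protein-coding genes placed on mm10 chromosomes. They were taken as a named list of enzymes that succinate can inhibit, with 3 Tet genes, 21 Kdm genes (Jmjd1c, Phf2, Phf8, Jmjd6, Riox1 and Riox2 among them), 7 Alkbh genes with Fto counted here, 3 Plod genes and Ogfod1. A gene carried a mark when a listed ChIP-seq region lay within 1000 bp of either end of the gene, and regions inside the gene beyond these windows were listed apart.

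The regions came from 2 immortalized mouse embryonic fibroblast lines, each with the doxycycline-driven Cre system R26M2rtTA/+;TetOcre. The experimental line was Sdhc fl/fl, with 2 floxed copies of the gene for a subunit of succinate dehydrogenase, and the control line was Sdhc fl/wt, with 1 floxed copy. Both lines received doxycycline at 1 µg/mL and were sampled at day 16, so the control shares the Cre, the drug and a floxed copy with the experimental line. There were 16 samples, 2 of each line for input chromatin and for each of 3 antibodies (against succinyllysine, H3K4me3 and H3K27me3), and the labels do not say whether the 2 samples came from separate cultures. For each antibody a single list of regions was deposited, named in the labels of the 4 samples of that antibody and without values for any one of them, so the lines cannot be told apart, no replicate error can be given, no difference was tested, and the depth behind a region is unknown. The lists held 10888 succinyllysine, 26654 H3K4me3 and 98342 H3K27me3 regions. Of 14 fibroblast marker genes 12 carried H3K4me3 (Thy1 and Lum did not), against 3 of 16 markers of other cell types (Epcam, Cdh1 and Tubb3).

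Enzymes of this class bind iron and 2-oxoglutarate, use oxygen to hydroxylate a substrate, and release succinate and carbon dioxide. On a methylated lysine or base the hydroxylated methyl group falls off as formaldehyde, which is how Kdm and most Alkbh enzymes remove methylation, while Tet enzymes oxidise the methyl group of 5-methylcytosine in steps and Plod enzymes leave a hydroxyl on collagen lysines. Succinate is a product and competes with 2-oxoglutarate, and it accumulates when succinate dehydrogenase is lost. H3K4me3 is found at the starts of active and poised genes, H3K27me3 at genes silenced by Polycomb, and lysine succinylation is an acyl mark formed from succinyl-CoA.

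The stretches of DNA before 6 annotated starts show the range of promoters in the family. They are given 5′ to 3′ on the gene's strand and end at the base before the start, with every CpG in capitals. Sequences and starts are from RefSeq (GRCm38.p6, the mm10 coordinates), which gave 38 starts for 29 of the 35 genes. Kdm2a, Kdm3b, Kdm4b, Kdm5a, Kdm6b and Plod2 had no entry. Kdm4c is shown at both of its starts because only the inner one lay in an H3K4me3 region, Tet3 and Alkbh5 because they had the widest H3K4me3 region of their subfamily, and Kdm7a and Alkbh8 because they had the most and the fewest CpGs among starts inside H3K4me3. Kdm7a and Alkbh8 were picked after these values were seen. Tet3 is shown for the 76 bases that do not overlap the neighbouring gene B230319C09Rik.
Kdm4c outer start (chr4:74242247-74242496, plus strand): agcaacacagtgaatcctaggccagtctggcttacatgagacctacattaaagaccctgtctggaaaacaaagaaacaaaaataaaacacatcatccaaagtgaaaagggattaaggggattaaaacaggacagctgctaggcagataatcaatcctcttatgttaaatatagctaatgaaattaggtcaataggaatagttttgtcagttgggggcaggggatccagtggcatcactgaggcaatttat
Kdm4c inner start (chr4:74251629-74251878, plus strand): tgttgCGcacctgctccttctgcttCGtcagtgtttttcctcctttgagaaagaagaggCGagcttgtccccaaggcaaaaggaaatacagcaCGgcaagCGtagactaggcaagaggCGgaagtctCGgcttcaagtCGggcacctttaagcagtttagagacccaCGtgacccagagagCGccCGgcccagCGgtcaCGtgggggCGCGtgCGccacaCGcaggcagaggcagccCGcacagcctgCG
Tet3 (chr6:83441679-83441754, minus strand): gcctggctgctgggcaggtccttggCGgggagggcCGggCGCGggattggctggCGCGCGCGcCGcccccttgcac
Kdm7a (chr6:39206774-39207023, minus strand): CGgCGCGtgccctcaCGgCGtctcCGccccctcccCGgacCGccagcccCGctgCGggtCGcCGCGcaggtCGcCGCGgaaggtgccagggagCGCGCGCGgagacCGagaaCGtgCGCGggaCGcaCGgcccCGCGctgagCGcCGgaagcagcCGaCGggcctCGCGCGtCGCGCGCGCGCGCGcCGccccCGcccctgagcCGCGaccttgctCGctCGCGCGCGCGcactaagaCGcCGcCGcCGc
Alkbh5 (chr11:60537433-60537682, plus strand): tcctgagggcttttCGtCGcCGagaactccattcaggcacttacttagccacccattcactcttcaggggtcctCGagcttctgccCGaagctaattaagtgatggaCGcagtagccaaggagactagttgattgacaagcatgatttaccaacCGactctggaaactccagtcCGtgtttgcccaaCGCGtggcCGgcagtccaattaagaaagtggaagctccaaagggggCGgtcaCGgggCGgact
Alkbh8 (chr9:3334981-3335230, plus strand): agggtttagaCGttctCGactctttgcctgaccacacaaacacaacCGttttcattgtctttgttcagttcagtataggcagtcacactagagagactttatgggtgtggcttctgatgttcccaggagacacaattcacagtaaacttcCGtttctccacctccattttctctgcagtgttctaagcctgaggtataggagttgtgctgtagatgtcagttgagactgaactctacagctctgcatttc

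H3K4me3 was listed at the ends of nearly all of these genes, succinyllysine at 1 and H3K27me3 at none. Of the 35 genes, 33 had an H3K4me3 region at an end (94.3%, exact Clopper-Pearson 95% interval 80.8 to 99.3), beside 55.8% of all protein-coding genes. One gene, Kdm5a, had a succinyllysine region at an end (2.86%, interval 0.0723 to 14.9), beside 5.45% of all genes. With a count of 1, no difference from that share can be read. None had an H3K27me3 region at an end (an exact upper limit of 10.0%), beside 13.6% of all genes. The 35 genes are a named list and not a random draw, so these intervals are no test against the shares of all genes. By subfamily, H3K4me3 was at an end of 3 of 3 Tet genes, 20 of 21 Kdm genes, 7 of 7 Alkbh genes, 2 of 3 Plod genes and Ogfod1. Kdm4c and Plod2, the exceptions, each had an H3K4me3 region inside the gene. Every one of the 35 thus had a region at an end or inside, beside 61.6% of all genes.

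**Figure D1:**
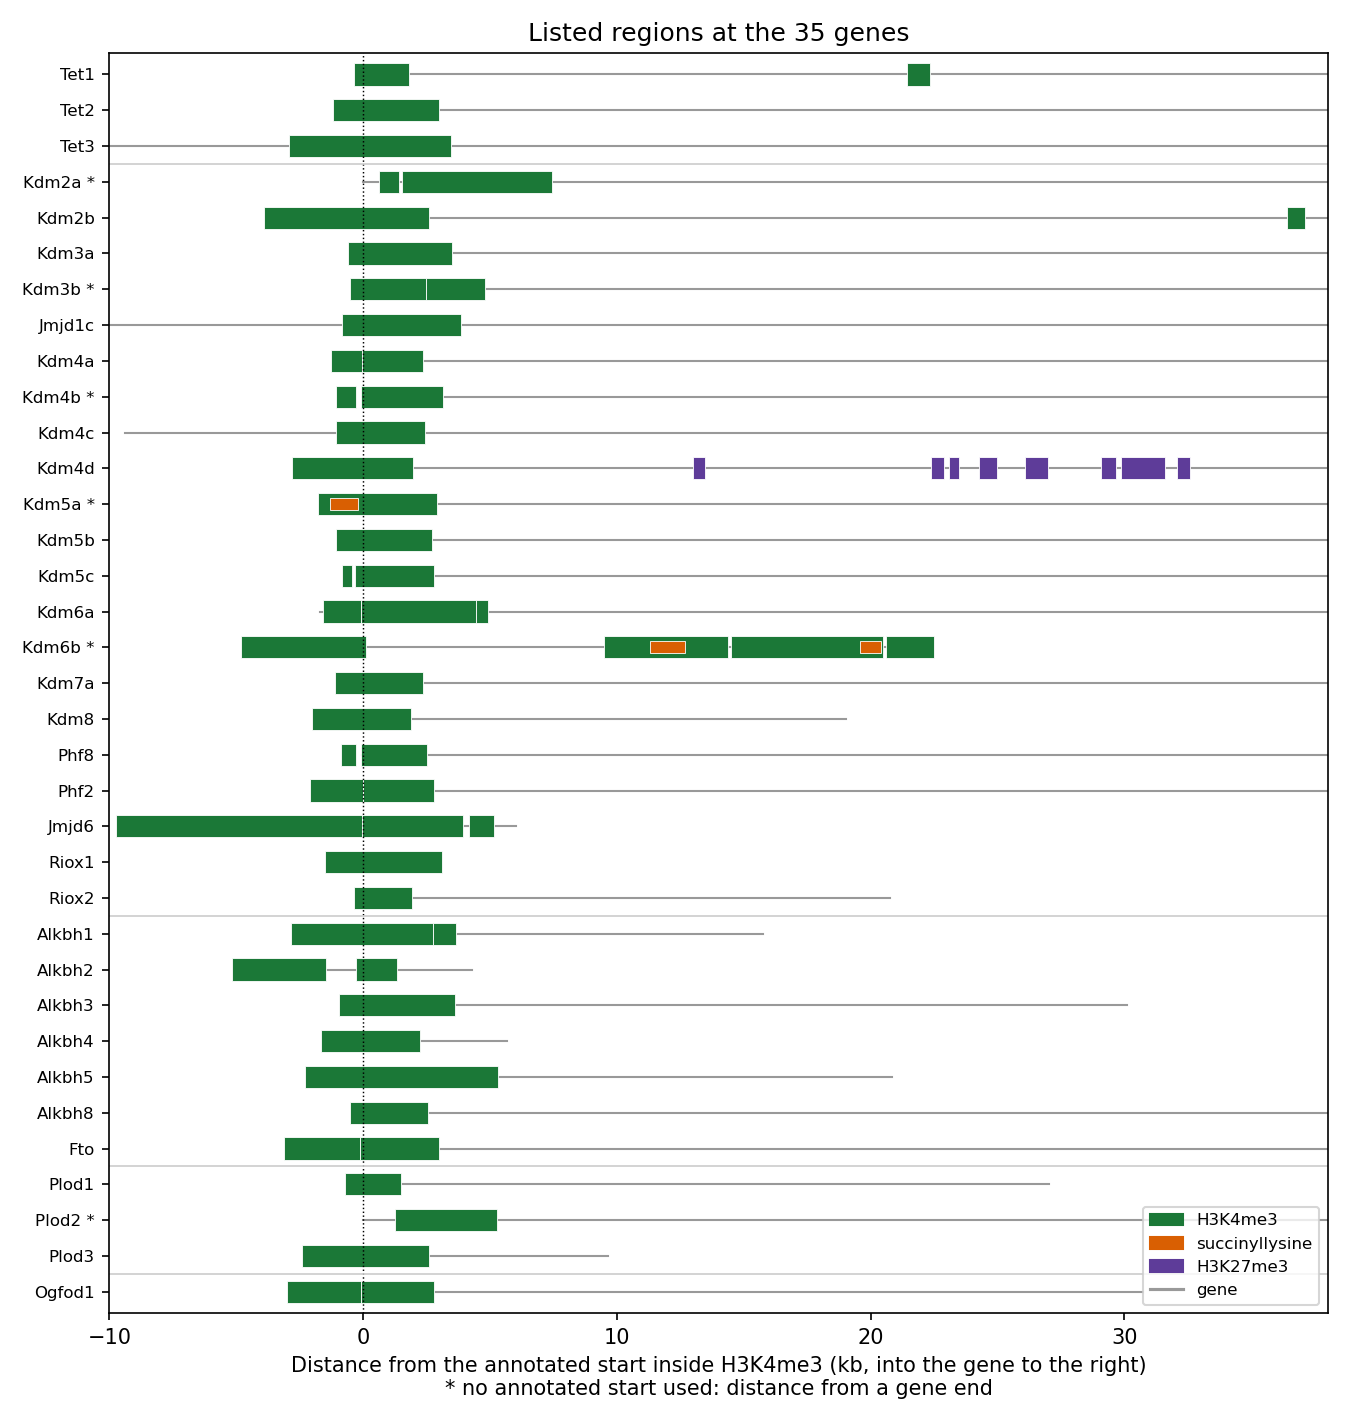
Each row is 1 of the 35 genes, grouped by subfamily, and the x axis is the distance in kb from an annotated start inside H3K4me3, or from a gene end for the genes with an asterisk, with the gene (grey line) running to the right. Green boxes are H3K4me3 regions, orange boxes succinyllysine and purple boxes H3K27me3. Green boxes sit at the start, or at or near the gene end in rows with an asterisk. Orange boxes appear at Kdm5a and Kdm6b, and purple boxes at Kdm4d. Regions beyond the drawn range of the x axis are not shown. These are the end regions of Tet3 and Jmjd1c and an inside region each of Kdm2a, Kdm2b and Jmjd1c.

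The annotated starts place these regions more exactly than the gene ends do. In all 29 genes with an annotated start at least 1 start lay inside an H3K4me3 region, against 9518 of 17492 genes (54.4%) in the whole table, and within 1000 bp of a region the share of all genes was 56.8%. The region reached a median of 849 bp upstream and 2722 bp downstream of the start (890 and 2478 bp over all genes with a start inside a region). It reached farther into the gene than out of it in 25 of 29 genes (86.2%), beside 84.7% of all such genes. The exceptions by gene were Kdm2b, Kdm4d, Kdm8 and Alkbh1, whose regions reached 3893, 2818, 2019 and 2861 bp upstream and 2606, 1981, 1880 and 2738 bp downstream. All these distances are of the single region that held the start, without regions that abut it. They, and the count of 25 of 29 genes, thus depend on where regions were split. At Ogfod1, Fto and Jmjd6 that region reached 97, 124 and 51 bp upstream, where another of 2900, 3000 and 9700 bp abutted it. At Kdm4a, Phf2 and Kdm6a it reached 57, 15 and 74 bp upstream, where another of 1200, 2100 and 1500 bp abutted it. At Alkbh1 and Kdm6a regions of 900 and 500 bp abutted it downstream. In 3 genes with several starts, 1 start lay outside H3K4me3. The outer Kdm4c start lay 8304 bp and 1 of 3 Kdm3a starts (71609139) lay 20262 bp from the nearest H3K4me3 region, and 1 of 3 Alkbh4 starts lay 381 bp from one.

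The 3 Tet genes, which encode the 5-methylcytosine dioxygenases, each had H3K4me3 at the upper end on the chromosome and no other mark at an end or inside. The region was 2200 bp wide at Tet1, 4200 bp at Tet2 and 5200 bp at Tet3. Inside the gene Tet1 had a further H3K4me3 region of 900 bp, on chromosome 10 at 62865001 to 62865900, which held no annotated start. Tet3 had an inside region of 6400 bp, on chromosome 6 at 83438201 to 83444600. It was this one that held the annotated Tet3 start shown above. Of the whole Tet3 gene 11.2% lay under H3K4me3, against 3.46% of Tet1 and 4.59% of Tet2. The nearest H3K27me3 region lay 50377 bp or more from each Tet gene. The nearest succinyllysine region was 45273 bp from Tet3, and over the 3 genes the median distance was 63077 bp.

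Among the Kdm genes, the Kdm2 pair removes methylation from H3K36, and Kdm2b also brings a Polycomb complex to CpG islands. Kdm2b had a 6500 bp H3K4me3 region at its upper end that held 2 of its starts, and an inside region of 3500 bp that held the other 2. Taking the widest region at an end for each gene, Kdm2a had the smallest value of the 33, 800 bp, but a region of 5900 bp began 100 bp farther in and another of 3800 bp lay deeper inside, so 12.7% of the gene was covered. The width at the end alone therefore understates H3K4me3 at Kdm2a.

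The Kdm3 genes (Kdm3a, Kdm3b and Jmjd1c), which act on H3K9, had end regions of 4100, 3000 and 5000 bp. At Kdm3b an inside region of 2300 bp abutted the end region. At Jmjd1c both annotated starts lay deep in the gene, each in an inside region (3100 and 4700 bp), and the end region was shared with the neighbour Reep3. The Kdm3a start without H3K4me3 had 0 CpGs in its 250 bases, against 31 and 20 at the other Kdm3a starts. The H3K27me3 region nearest to Kdm3a was 700 bp wide and 4311 bp away.

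The Kdm4 genes, which remove H3K9 trimethylation, included 1 gene without H3K4me3 at an end and 1 with H3K27me3 inside. Kdm4a and Kdm4b had end regions of 2400 and 3200 bp. Kdm4c, on chromosome 4 from 74242497 to 74405864, had none at an end, and its only region, 3500 bp wide at 74250801 to 74254300, held the inner start. The outer Kdm4c start, at the end of the gene, had 0 CpGs in the bases printed above, while the inner one had 19 and 2 copies of the E box CACGTG. Kdm4d, a form without the histone-reading domains of its relatives, had a 4800 bp H3K4me3 region (14498501 to 14503300 on chromosome 9) that covered its start and reached the spliceosome gene Cwc15. It was also the only one of the 35 genes with H3K27me3 in its body, 8 regions of 400 to 1700 bp between 14467901 and 14487500. These lay 12982 to 32581 bp downstream of the start, summed to 5800 bp and covered 15.3% of the gene. One more H3K27me3 region, 500 bp wide at 14460101 to 14460600, lay outside Kdm4d, 1948 bp from its lower end. Of the 3348 genes with an H3K27me3 region inside, the median held 4 and 65.8% held fewer than Kdm4d. None of the Kdm4d H3K27me3 regions overlapped H3K4me3, so the 2 marks lay apart along the gene in lists that do not separate the lines. How often this holds over all H3K27me3 regions was not counted.

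The Kdm5 genes erase H3K4 methylation, the mark most common at their own ends. Kdm5b had a 3800 bp region and Kdm5c a 3100 bp one, both over the start. Kdm5a, on chromosome 6 from 120364099 to 120444574, had a 4700 bp H3K4me3 region at 120362301 to 120367000 and within it the only succinyllysine region at an end of the 35 genes, 1100 bp wide at 120362801 to 120363900. The succinyllysine region ended 199 bp before the Kdm5a gene began. Both regions also lay within 1000 bp of an end of Ccdc77, so neither can be assigned to 1 of the 2 genes. Its width was the median of all 1187 genes with the mark at an end, 1100 bp.

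The Kdm6 genes remove H3K27 methylation. Kdm6a, on the X chromosome, had 1500 bp of H3K4me3 at its lower end and, directly after it, 4500 bp that held the start. Kdm6b, on chromosome 11 from 69398508 to 69420367, had more bases under H3K4me3 within the gene than any other member, 12260 bp or 56.1% of the gene. Its end regions were 4900 bp (69393701 to 69398600), shared with Cyb5d1, Naa38 and Tmem88, and 1900 bp (69419101 to 69421000), shared with Dnah2. Its inside regions were 4900 bp (69408001 to 69412900) and 6000 bp (69413001 to 69419000). Each inside region held a succinyllysine region, 1400 bp at 69409801 to 69411200 and 800 bp at 69418101 to 69418900. Kdm6b was the only member with succinyllysine inside the gene (2.86%, beside 5.43% of all genes). The second of these lay 1467 bp from the upper gene end, just outside the window, so that Kdm6b would count as marked with a window of 2500 bp. All succinyllysine bases at Kdm5a and Kdm6b lay under H3K4me3 and none under H3K27me3. In the lists of related genes below, cover by H3K4me3 was full at Ezh2, Kmt5c and Psat1, partial at D2hgdh and absent at Phyhd1 and Got1. The share over all succinyllysine regions was not counted.

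The PHD finger demethylases Kdm7a, Phf8 and Phf2 bind H3K4me3 and remove methyl groups from other lysines. Their H3K4me3 regions were 3500, 2600 and 2800 bp wide. The JmjC hydroxylases modify proteins other than histone tails. Kdm8 had a 3900 bp region, the ribosomal oxygenase genes Riox1 and Riox2 had 4600 and 2300 bp, and the Riox1 region covered its whole gene of 2346 bp. Jmjd6, a lysyl hydroxylase of splicing factors, had the widest H3K4me3 region of all members, 9700 bp on chromosome 11 at 116843501 to 116853200, wider than that of 98.9% of marked genes. That region also lay at the ends of Mettl23, Mfsd11 and the splicing factor gene Srsf2, and the annotated Jmjd6 start was in the next region, of 4000 bp, that abuts it.

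In the Alkbh genes the widest region at an end ran from 3100 to 7600 bp with a median of 3900 bp. Alkbh1, a demethylase of tRNA, had 5600 bp shared with Nrp and Slirp. Alkbh2 and Alkbh3, which repair alkylated bases, had 3700 and 4600 bp, and the Alkbh2 end region was shared with Ung, which removes uracil from DNA. The annotated Alkbh2 start lay in an inside region of 1600 bp instead. Alkbh4 had 3900 bp, shared with Lrwd1. Alkbh5 and Fto remove N6-methyladenosine from RNA. Alkbh5 had 7600 bp (60535401 to 60543000 on chromosome 11), more than any other Alkbh gene and than 96.8% of marked genes, and shared it with no other gene. Fto had 2 abutting regions of 3000 and 3100 bp, both shared with the ciliary gene Rpgrip1l, and as the longest gene of the list (355067 bp) had 0.883% of its length covered. Alkbh8, which modifies wobble uridine in tRNA, had 3100 bp over its start. No Alkbh gene had succinyllysine or H3K27me3 at an end or inside, and the nearest succinyllysine region to any was 83245 bp away.

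The Plod genes encode lysyl hydroxylases of collagen, a main product of fibroblasts. Plod1 had a 2200 bp H3K4me3 region and Plod3, which also adds sugars to hydroxylysine, a 5000 bp one (136984601 to 136989600 on chromosome 5) shared with Znhit1. Plod2, on chromosome 9 from 92539636 to 92608428, had its only region at 92540901 to 92544900, 4000 bp wide and 1265 bp into the gene, just outside the window. Ogfod1, a prolyl hydroxylase of a ribosomal protein, had 2 abutting regions of 2900 bp, both shared with Nudt21. None of these 4 genes had succinyllysine or H3K27me3 at an end or inside.

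Over the 33 genes the widest H3K4me3 region at an end ranged from 800 bp (Kdm2a) to 9700 bp (Jmjd6) with a median of 3800 bp, beside 3500 bp over all marked genes, and 18 of the 33 were above that value. The region was also at the end of another protein-coding gene for 13 of the 33 (39.4%, beside 33.6% of all marked genes), and the median width was 4700 bp for these and 3150 bp for the other 20, beside 4300 and 3200 bp over all marked genes.

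**Figure D2:**
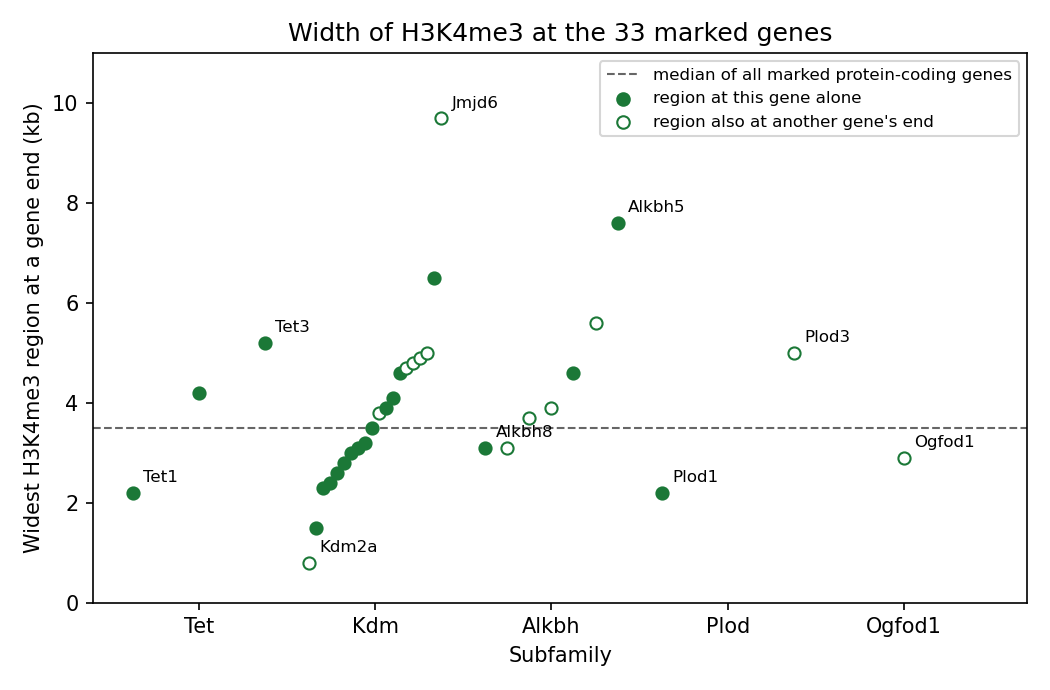
Each point is 1 of the 33 genes with H3K4me3 at an end, placed by subfamily and, on the y axis, by the width in kb of its widest region there. Open points are genes whose region also lay at the end of another protein-coding gene. Other kinds of gene were not counted, so Kdm2b (with A930024E05Rik) and Phf2 (with Phf2os1) are filled. The dashed line is the median over all marked protein-coding genes, 3500 bp. Jmjd6 at 9700 bp is open and Alkbh5 at 7600 bp is filled.

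Inside genes, H3K4me3 was listed in 12 of the 35 (34.3%), beside 15.3% of all genes. The members were also longer, with a median of 55924 bp beside 17217 bp, and the part of length in this share was not tested. In 6 of the 8 such genes with an annotated start (Tet3, Kdm2b, Jmjd1c, Kdm4c, Kdm6a and Alkbh2), an inside region held a start, beside 34.3% of all genes with both. H3K27me3 was inside 1 member (2.86%), beside 15.4% of all genes. Of the summed length of the 35 genes, 6.35% lay under H3K4me3, 0.25% under H3K27me3 and 0.0949% under succinyllysine, beside 3.72%, 3.46% and 0.323% of all genes.

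Distances to the nearest H3K27me3 and succinyllysine regions were measured from each gene. The nearest H3K27me3 region lay a median of 76670 bp from a member, beside 45432 bp from any gene, and 5 members had one within 10 kb (14.3%, beside 29.6%). These were Kdm4d, Kdm3a, Kdm5b (8423 bp away), Alkbh5 (8489 bp) and Kdm8 (9720 bp). The nearest succinyllysine region lay a median of 147577 bp away, beside 136011 bp, and within 50 kb of 8 members (22.9%, beside 30.3%). After Kdm5a and Kdm6b the closest was that near Jmjd6, a 5100 bp region 16332 bp from the gene.

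The promoters of these genes were rich in CpG. The ratio of observed CpGs to those that the C and G content of the 250 bases before a start would give had a median of 0.838 over the 38 starts, beside 0.53 over 21263 starts of all genes. Over all genes the median was 0.755 at starts within 1000 bp of H3K4me3 and 0.208 at starts farther away. Among starts inside H3K4me3 the ratio ran from 0.32 at Alkbh8, with 4 CpGs, to 1.35 at Kdm7a, with 56. Tet3 had a ratio of 0.562 and Alkbh5 0.768. The Kdm3a and Kdm4c starts farther than 1000 bp from H3K4me3 both had a ratio of 0, and the Alkbh4 start 381 bp from a region had 0.308. Kdm7a and Alkbh8, at the ends of this range, had H3K4me3 regions of similar width, 3500 and 3100 bp.

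**Figure D3:**
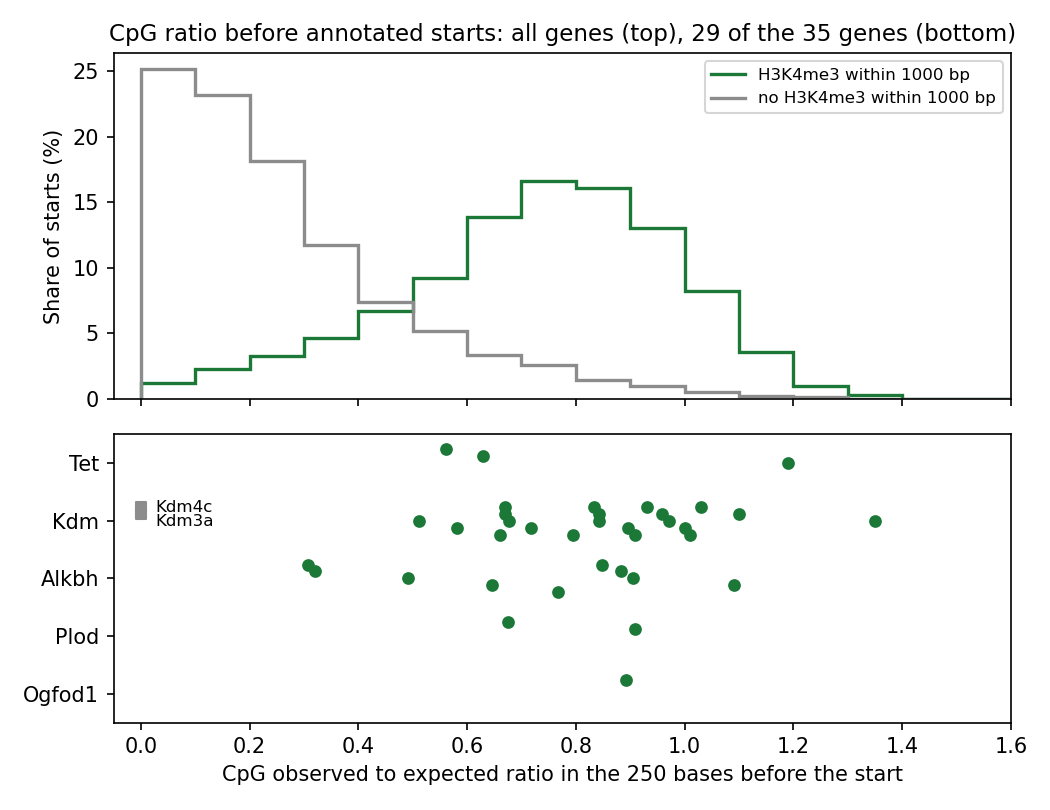
The upper panel shows, for all genes, the share of annotated starts (y axis, percent) at each CpG observed to expected ratio (x axis, no unit), with green for starts within 1000 bp of H3K4me3 and grey for the rest. The lower panel shows the 38 starts of 29 of the genes by subfamily, and the grey squares at 0 are the Kdm3a and Kdm4c starts without H3K4me3.

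Short motifs were searched on both strands of the same 250 bases, as letters alone. The GC box GGGCGG was present before a start of 18 of 29 members (62.1%, beside 45.8% of all genes) and the CCAAT box CCAAT before 13 (44.8%, beside 39.5%). The TATA box TATAAA was before 2 (Riox2 and Plod1, 6.9%, beside 13.7%) and the E box CACGTG before 2 (Kdm4c and Kdm6a, 6.9%, beside 7.61%). The core of the hypoxia-response element, ACGTG, which lies within the E box, was before 11 (37.9%, beside 20.0%), among them Tet2, Kdm4c, Kdm5b, Kdm6a, Kdm7a and Jmjd6. The cyclic AMP element TGACGTCA was before Phf8 alone (3.45%, beside 2.2%) and the AP-1 site TGACTCA before Kdm3a, Kdm4a and Kdm5c (10.3%, beside 4.77%). The GC box, the E box, the hypoxia core and the cyclic AMP element contain a CpG, and the part of the CpG content in these shares was not tested.

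Lists of related genes were read in the same way. Over all protein-coding genes the shares were 55.8% for H3K4me3, 5.45% for succinyllysine and 13.6% for H3K27me3. Of 27 other 2-oxoglutarate oxygenases, which include the prolyl hydroxylases of HIF and collagen, 26 had H3K4me3 at an end (96.3%, not Bbox1 of carnitine synthesis). Among these 27, Phyhd1 had succinyllysine (3.7%, 3400 bp) and none had H3K27me3. All 20 histone lysine methyltransferases, which write the marks that Kdm enzymes remove, had H3K4me3, and Ezh2 and Kmt5c had succinyllysine (10.0%, 700 bp each). Of 15 genes that supply or use 2-oxoglutarate 13 had H3K4me3 and 3 had succinyllysine, D2hgdh (1400 bp), Psat1 (800 bp) and Got1 (700 bp). Both flavin-dependent demethylases, Kdm1a and Kdm1b, had H3K4me3. Of the 3 DNA methyltransferase genes, whose product the Tet enzymes act on, Dnmt3b had it at an end and Dnmt1 and Dnmt3a inside. Of the 3 genes of the RNA N6-methyladenosine writer, Mettl14 and Wtap had it at an end and Mettl3 inside. Of the 14 fibroblast markers 4 had succinyllysine (28.6%), S100a4 (8000 bp), Vim (1600 bp), Col1a2 and Fn1 (1300 bp each), and none had H3K27me3. Of the 16 markers of other cell types Krt8 had succinyllysine (1000 bp). H3K27me3 was at 5 of the 16 (31.2%), the widest at Cd3e (11900 bp), Rbfox3 (3900 bp), Alb (3500 bp) and Myod1 (1200 bp).

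**Figure D4:**
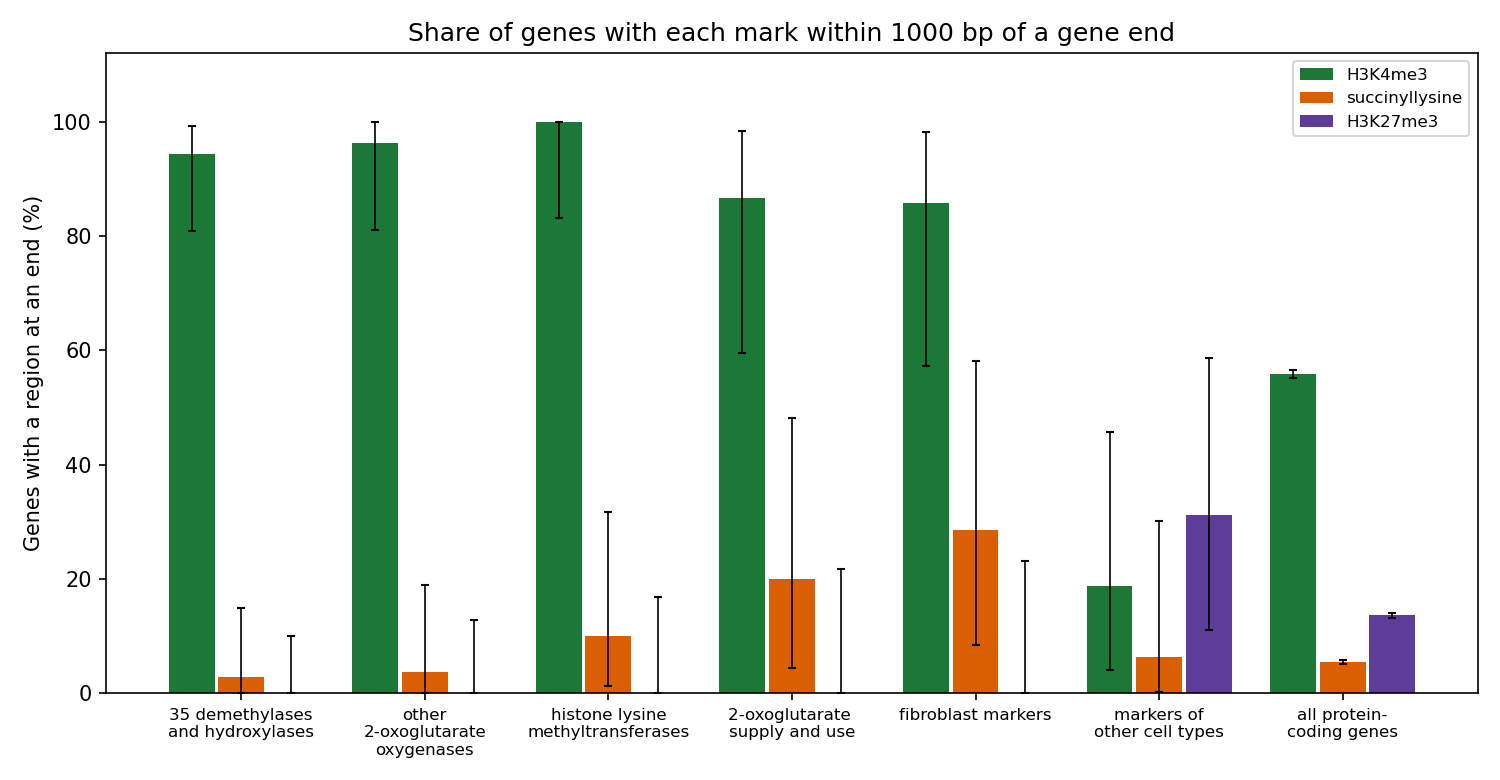
Bars give the share of genes (y axis, percent) with each mark within 1000 bp of a gene end, in the 35 genes, 5 other lists and all protein-coding genes (x axis), and the lines are exact Clopper-Pearson 95% intervals, which cover counting error only. H3K4me3 stands at 94.3% in the 35 genes and 55.8% in all genes, and no H3K27me3 bar is drawn for the 35 genes.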

How the data were processed

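Per the labels, chromatin was cut with MNase and sonicated before ChIP. Bowtie2 2.2.3 and mm10 are named per the submitters' processing notes. How regions were called from the reads, at which threshold, with which input and over which samples was not given in the sources used here. The deposited values are positions of regions, read as 1-based and inclusive on a 100 bp grid, with no height or score.

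Gene ends were those of RefSeq GRCm38.p6. Of its protein-coding genes, 108 with scaffold positions (starts below 3 Mb, outside Y) were left out. Starts and the 250 bases before them came from the RefSeq promoter table. Members, lists and rules were chosen with earlier results of these data known. The rule for names was all 35 members, and in other lists those with succinyllysine or H3K27me3 at an end, up to 4 by width. Promoters of Jmjd6 and Plod3, which it also names, overlap neighbouring genes and are not printed. Next to the start, 0 bases of Plod3 and 65 of Jmjd6 lay outside those genes. The Jmjd6 bases were left out as possibly transcribed. No test was run. Exact 95% intervals cover counting error only. Placement was tested on simulated data, and 200 of 200 cases of each kind were recovered. Python 3.11.15, numpy 2.4.6, scipy 1.17.1 and matplotlib 3.10.9 were used. Alternatives were windows of 500 and 2500 bp, wider regions alone, a 200 bp overlap, whole genes, annotated starts, autosomes and merged regions.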

Additional observations from a re-analysis of the deposited data

How the results depend on the processing

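Of 39 alternatives, 34 left the count or the median width within 1.5 times of its value, and 5 moved a count. Members with succinyllysine at an end numbered 2 with a window of 2500 bp and 2 over the whole gene with 1000 bp on each side, since Kdm6b was then counted, and 0 at annotated starts alone, where Kdm5a has no entry. Members with H3K27me3 numbered 1 with a window of 2500 bp and 1 over the whole gene, Kdm4d in both, with the wider window through the region 1948 bp outside the gene. H3K4me3 was at 29 members by annotated start (all that have one), at 30 of the autosomal members and at 32 to 35 under the other alternatives. Its median width rose from 3800 to 4800 bp when regions within 1000 bp were merged. The width of H3K27me3 at ends has no value, as no member had a region there. No paired analysis was possible because the lists carry no value for single samples, which also means that no replicate could be left out. Depth is unknown, so a mark that is not listed may be below the authors' threshold.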

Other observations

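At 8 of the 33 genes with H3K4me3 (Kdm4a, Kdm4b, Kdm5c, Phf8, Phf2, Jmjd6, Fto and Ogfod1), a pair of H3K4me3 regions at 1 end lay 0 to 200 bp apart, which was so, with gaps of up to 300 bp, for 24.2% of these genes and 13.6% of all marked genes. In the 7 with an annotated start the start lay 15 to 326 bp from the place where the regions met, with a median of 71 bp beside 138 bp over 1389 such genes. In 6 of the 7 it was within 150 bp (85.7%, beside 54.2%). A width measured on a single region is then smaller than the stretch of H3K4me3 around the start, as at Phf2 with regions of 2800 and 2100 bp. These counts were made after the regions had been seen.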
